A study of Mus musculus with 6 samples.

Results

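The enzymes that carry glucose to lactate were examined in LSC GFP+ and LSC GFP- cells of the neonatal mouse prostate. They are the products of 10 genes, Hk1, Hk2, Gpi1, Pfkl, Aldoa, Tpi1, Gapdh, Pgk1, Eno1 and Ldha. Every array probe that carried one of these gene names was taken, which gave 24 of the 55681 probes on the array. Gapdh had 8 of them, Gpi1, Hk1 and Ldha had 3 each, Tpi1 had 2, and the other 5 genes had 1 each. The cells came from the prostate of untreated 6-day-old male FVB/N mice of the Tg 11.5kb-GFP line, in which the s-SHIP promoter drives GFP. All 6 samples carry this transgene. LSC cells are negative for blood and endothelial lineage markers and positive for Sca-1 and CD49f, and they were sorted into a GFP+ and a GFP- population, with 3 samples of each. How many animals made up a sample is not given in the sources used here, so p values measure the spread between these samples. In the prostate of these mice the promoter is also active in vascular smooth muscle cells, which per the study have little or no Sca-1 and CD49f and so would fall outside the gate. The microarrays were run to compare the expression profile of the GFP+ cells with that of the remaining cells of the gate.

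Glycolysis splits glucose in the cytosol and yields ATP, NADH and pyruvate. Hexokinase traps glucose as glucose 6-phosphate, phosphofructokinase commits it to the pathway, aldolase splits the sugar, and the steps from Gapdh to pyruvate kinase return ATP. Lactate dehydrogenase regenerates NAD+ by turning pyruvate into lactate. Most of these enzymes are abundant in every cell type, which is why Gapdh is widely used as a reference gene, and the expression of several rises when oxygen is low, through hypoxia-inducible factors. In the study, Gapdh was the gene to which RT-qPCR values of Wnt10b, Ror1 and Lef1 were normalized.

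Each value is the log2 signal of a probe minus the 75th percentile of its array, so a log2 signal of 0 is the 75th percentile. All 24 probes were well above background on all 6 arrays and none was saturated. The array design gives their positions in mm9. On the same scale, all 8 basal cell markers were tested at the threshold used below, which 9.33% of all genes passed in either direction. LSC GFP+ cells had more of 4 of these 8, Krt5, Krt14, Krt15 and Krt17. Trp63, Itga6, Itgb4 and Ly6a did not pass, with log2 differences of 0.11, 0.25, 0.13 and -0.36. All 7 smooth muscle markers were lower in LSC GFP+ cells, and their summed linear signal, in units of the array's 75th percentile, was 7.68 to 12.9 in LSC GFP+ and 26.2 to 52.9 in LSC GFP- samples. Of the 8 stromal markers 5 were lower and 1 higher, with sums of 19.4 to 25.7 and 21.7 to 61.8. None of the tested endothelial, immune and erythroid markers passed, 4, 6 and 2 genes respectively. The sums of the 4 erythroid markers were 0.707 to 4.50 in LSC GFP+ and 1.31 to 3.29 in LSC GFP- samples. What part these other cell types have in the values below was not tested, and fewer cells of a type cannot be told apart from less RNA per cell.

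The probes for Gapdh and Gpi1 show what a signal of these genes stands for, because near-identical sequences occur on the array and in the genome. Of the 8 Gapdh probes, 7 also list transcripts of other loci in the array design, such as Gm12070, and 6 are placed on chromosome 6, where Gapdh lies. The design places the probe from base 740 at chr8:94212520-94212579 and the one designed on another cDNA at chr7:59003199-59003257. For the probe from base 897, the brightest, it gives only 19 bases at chr6:125111848-125111866. The probes from bases 740 and 897 are given whole, in lower case and in transcript sense.
Gapdh, base 740: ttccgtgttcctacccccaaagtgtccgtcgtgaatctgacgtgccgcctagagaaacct
Gapdh, base 897: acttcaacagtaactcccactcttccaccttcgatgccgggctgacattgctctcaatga
Another 3 Gapdh probes end near the polyadenylation signal and overlap by 44 bases. A window of 30 bases is shown for each, with capitals at the positions where the 3 are not the same. Over the 44 bases, the probe from base 1164 differed from each of the other two at 4 positions, and those other two differed at 2 positions.
Gapdh, base 1164: tCcctaTtctTttgaataccatcaataaaT
Gapdh, base 1175: tAcctaCtctCttgaataccatcaataaaG
Gapdh, the cDNA placed on chromosome 7: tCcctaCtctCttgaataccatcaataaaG
The 3 Gpi1 probes lie within 5 bases of each other near the 3′ end of the transcript, on the minus strand of chromosome 7, and share 55 bases with 1 or 2 mismatches between any pair, again in capitals.
Gpi1, base 1964: tgttgttCtgacctGtatttcacaccccag
Gpi1, base 1968: tgttgttCtgacctTtatttcacaccccag
Gpi1, base 1969: tgttgttTtgacctGtatttcacaccccag
Signals of such probes are not separate measurements of a gene, and the 8 Gapdh probes may read transcripts of its copies as well.

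Most glycolytic genes did not separate the populations. The threshold for a call was 0.05 for the unadjusted p of limma's moderated test, and of the 24 probes 2 passed it, 1 of Hk2, which was higher in LSC GFP+ cells, and 1 of Hk1, which was lower. Over all 37005 probes tested, 7.9% passed. The same 2 probes were those whose 3 LSC GFP+ values did not overlap the 3 LSC GFP- values, against 12.3% of all probes tested. With the brightest probe standing for each gene, 1 of 10 genes passed, Hk2, beside 9.33% of all genes. None of the 24 passed after Benjamini-Hochberg adjustment over all probes, the lowest adjusted p being 0.349, and 0.0027% of all probes did. The median log2 difference over the 10 genes was 0.058, beside -0.0043 over all probes tested, and 9 of the 10 differences were above 0. The share of all genes with a difference above 0 was not taken. Under quantile normalization Gapdh, Hk1, Pfkl, Tpi1 and Ldha turned negative, and the median over the 10 genes was -0.022. Passing shares this near the background are no result about the enzymes as a group. A fit that blocks on the replicate number also passed 2, beside 14.8% of all probes.

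Hexokinases catalyse the first step, and Hk2 is the inducible form, typical of muscle, fat and growing tissue. Its probe lies at chr6:82675056-82675115 on the minus strand, from base 5416 of the transcript, and begins as follows, in lower case for its first 30 bases.
Hk2, base 5416: tagtgagcgttttgtcatcatgtacagtag
The log2 signal of Hk2 was 2.31, 2.38 and 2.06 in LSC GFP+ replicates 1, 2 and 3 and 1.73, 1.62 and 1.25 in the LSC GFP- replicates. Every LSC GFP+ value was above every LSC GFP- value, and replicate 3 was the lowest of its population in both. The difference was 0.72 (SE 0.21, 95% interval 0.22 to 1.21), a 1.64-fold higher signal, which passed the threshold before adjustment and had an adjusted p of 0.349 in limma. Within replicates 1, 2 and 3 the differences were 0.58, 0.75 and 0.81.

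Hk1, the form found in nearly all tissues and bound to mitochondria, had 3 probes on chromosome 10 that did not give the same picture. The first 30 bases of the 2 probes nearest to the 3′ end are shown because their differences had opposite signs.
Hk1, base 3844: ggaatctcccatcgctttagtgagccattg
Hk1, base 4126: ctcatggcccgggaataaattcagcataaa
At base 3844, chr10:61731856-61731915, the log2 signal was 2.38, 2.74 and 2.45 in LSC GFP+ and 3.12, 3.099 and 2.98 in LSC GFP- replicates. All 3 LSC GFP+ values were below all 3 LSC GFP- values. The difference was -0.54 (SE 0.19, 95% interval -0.99 to -0.09), which passed before adjustment and had an adjusted p of 0.481 in limma. This call was lost under scaling by the array median (-0.47). It was also lost when replicate 1 or 3 of LSC GFP+ was left out (-0.47 and -0.50), and when replicate 1 or 2 of LSC GFP- was left out (-0.52 in both). The brightest Hk1 probe, from base 4126, read 4.96, 4.57 and 5.18 in LSC GFP+ and 4.82, 4.57 and 5.11 in LSC GFP- replicates, which overlap throughout. Its difference was 0.07 (SE 0.24, adjusted p = 0.996). The third probe, from base 2983, had a difference of -0.12 (SE 0.20, adjusted p = 0.996). Bases 2983 and 3844 are counted along the same transcript and base 4126 along another transcript sequence. The distance of base 4126 from the others cannot be read from these numbers. The probe at base 3844 taken relative to the one at base 4126 within each array differed between the populations by -0.61, with an exact two-sided permutation p of 0.2, and relative to the one at base 2983 by -0.42, also with p = 0.2. A comparison of 3 against 3 samples cannot give less than 0.1 in this test.

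**Figure D1:**
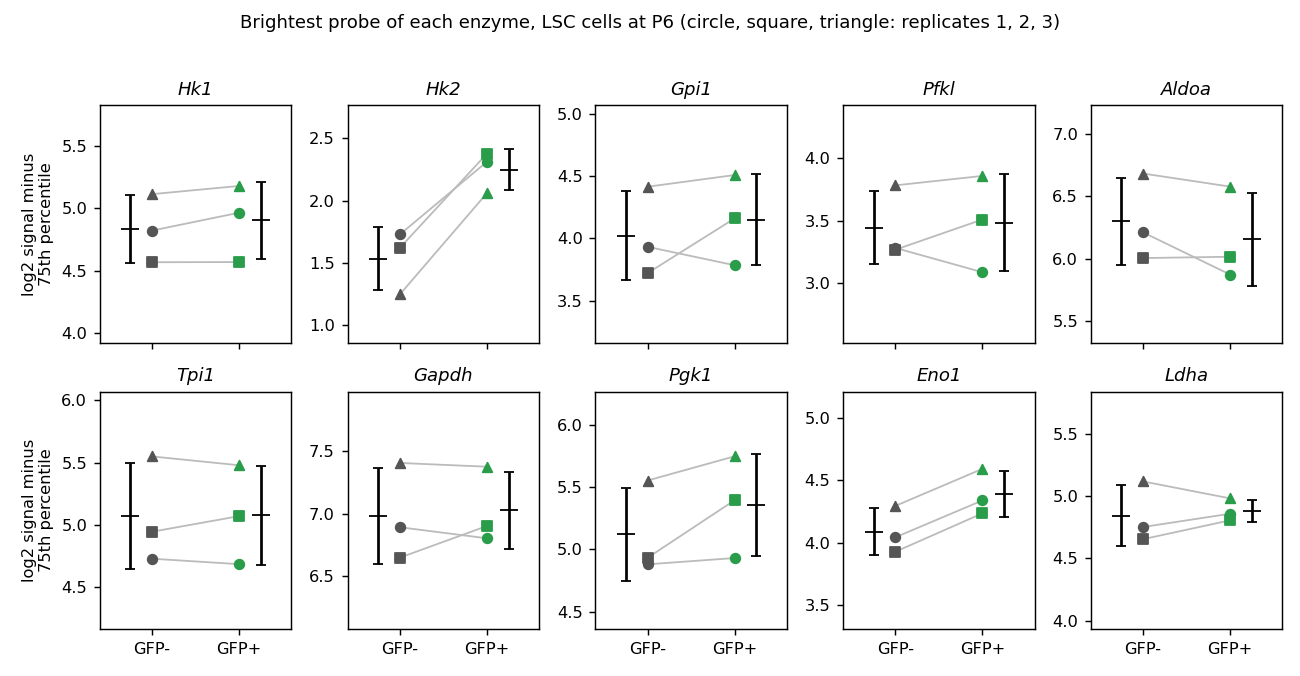
Log2 signal minus the array's 75th percentile (y axis, each panel spanning the same range) at the brightest probe of each gene in LSC GFP- (grey) and LSC GFP+ (green) samples, with lines joining samples of the same replicate number and bars giving the mean ± SD, n = 3. The populations separate at Hk2, Eno1 moves by 0.30 in each pair, and replicate 3 is the highest of both populations in every panel except Hk2.

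The enzymes of the next steps had close to the same signal in both populations. Gpi1, glucose 6-phosphate isomerase, read 3.78, 4.16 and 4.51 in LSC GFP+ and 3.93, 3.72 and 4.41 in LSC GFP- replicates at its brightest probe. The 3 Gpi1 probes gave differences of 0.10 to 0.13, and none passed (adjusted p = 0.996 for each). Pfkl, the liver type subunit of phosphofructokinase, read 3.09, 3.51 and 3.86 against 3.28, 3.27 and 3.78, a difference of 0.041 (SE 0.26, adjusted p = 0.996). Aldoa, the main aldolase outside the liver, was the single gene with a negative difference at its brightest probe. Its signal was 5.87, 6.02 and 6.58 in LSC GFP+ and 6.21, 6.01 and 6.68 in LSC GFP- replicates, a difference of -0.14 (SE 0.27, adjusted p = 0.996). Tpi1, triosephosphate isomerase, read 4.69, 5.07 and 5.48 against 4.73, 4.95 and 5.55 at its brighter probe, with a difference of 0.0035 (SE 0.30, adjusted p = 0.999), and its other probe differed by 0.074 (SE 0.31). In all of these the populations overlapped, and the spread within a population was wider than the difference between populations. The 95% interval for Tpi1, -0.68 to 0.69, does not exclude a change of 1.5-fold in either direction, and the intervals of the others were about as wide. With the replicate block the intervals were narrower, -0.34 to 0.35 for Tpi1, -0.35 to 0.43 for Pfkl, -0.51 to 0.22 for Aldoa and -0.30 to 0.56 for the brightest Gpi1 probe. If the replicate numbers mark pairs, these exclude a change of 1.5-fold.

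None of the enzymes after Gapdh passed the test. Pgk1, phosphoglycerate kinase, which makes the first ATP of the pathway, was read by a probe that the design places on chromosome 3, although Pgk1 is X-linked. Its signal was 4.93, 5.39 and 5.75 in LSC GFP+ and 4.88, 4.93 and 5.55 in LSC GFP- replicates, a difference of 0.24 (SE 0.29, 95% interval -0.43 to 0.90, adjusted p = 0.996). It ran from 0.041 without replicate 3 of LSC GFP+ to 0.45 without replicate 3 of LSC GFP-. Eno1, the widespread form of enolase, read 4.34, 4.24 and 4.59 against 4.04, 3.93 and 4.29. The difference was 0.30 (SE 0.20, 95% interval -0.17 to 0.77, adjusted p = 0.889) and, within replicates 1, 2 and 3, it was 0.30, 0.31 and 0.30. It did not pass with the replicate block either (adjusted p = 0.375). Ldha, the muscle type subunit of lactate dehydrogenase, read 4.86, 4.81 and 4.98 in LSC GFP+ and 4.75, 4.65 and 5.12 in LSC GFP- replicates at its brightest probe. The 3 Ldha probes had differences of 0.041 to 0.15, each with an adjusted p of 0.996.

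**Figure D2:**
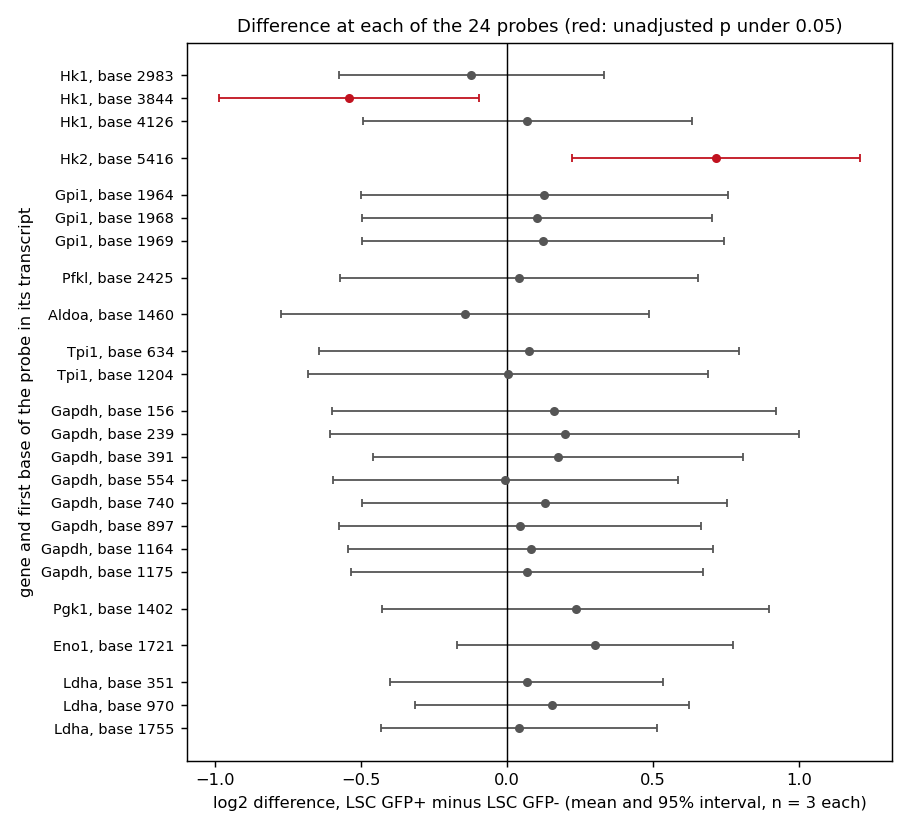
Log2 difference, LSC GFP+ minus LSC GFP- (x axis), with its 95% interval from limma for each of the 24 probes (y axis, gene and first base in the transcript), n = 3 samples per population. The interval excludes 0 at the Hk2 probe and at the Hk1 probe from base 3844 (red) and includes 0 at the other 22.

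Gapdh catalyses the oxidation of glyceraldehyde 3-phosphate and was tested for its use as a reference. At its brightest probe the log2 signal was 6.80, 6.90 and 7.38 in LSC GFP+ and 6.89, 6.65 and 7.41 in LSC GFP- replicates. Replicate 3 was the highest in both populations, and the populations overlapped. The difference was 0.045 (SE 0.27, adjusted p = 0.996), a 1.03-fold ratio with a 95% interval of 0.672 to 1.58. On the log2 scale the interval was -0.57 to 0.66, and -0.33 to 0.42 with the replicate block. It turned to -0.12 under quantile normalization. Leaving out replicate 3 of LSC GFP+ gave -0.13, leaving out replicate 1 or 2 of LSC GFP- gave -0.00031 and -0.12, and leaving out replicate 3 of LSC GFP- gave 0.26, the highest value of any alternative. The 8 Gapdh probes had differences of -0.0059 to 0.20, and none passed. The 3 overlapping probes near the polyadenylation signal differed by 0.069, 0.081 and -0.0059. The 4 probes from bases 156, 239, 391 and 740 had the larger differences, 0.16, 0.20, 0.17 and 0.13. The RNA was amplified before labelling, which can weight probes by their distance from the 3′ end. The Gapdh probe from base 156 relative to that from base 1175 within each array was -0.91, -0.98 and -0.69 in LSC GFP+ and -0.99, -1.08 and -0.77 in LSC GFP- replicates. The populations differed by 0.092 in this quantity, with an exact two-sided permutation p of 0.5, and the corresponding values for Tpi1 and Ldha were 0.071 (p = 0.4) and 0.027 (p = 1).

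Across the samples, the replicate number moved most glycolytic probes more than GFP did. This comparison was added after the values had been seen. Replicate 3 was the highest of both populations at 20 of the 24 probes, among them all 8 of Gapdh, where it exceeded the mean of replicates 1 and 2 by 0.54 to 0.87, averaged over both populations. The share of all tested probes with that order was 28.4%. The corresponding excess was 0.66 and 0.74 at the Tpi1 probes, 0.61 at Pgk1, 0.60 at Aldoa, 0.53 at Pfkl, 0.53 to 0.57 at Gpi1 and 0.42 at the brightest Hk1 probe. Hk2 went the other way, with replicate 3 lower by 0.36 in the mean of both populations (excess -0.36). In limma's F test of the replicate number beside the population, 15 of the 24 probes had an unadjusted p under 0.05, against 26.3% of all probes tested, and the lowest adjusted p among them was 0.141. They were all 8 of Gapdh, both of Tpi1, and 1 each of Aldoa, Gpi1, Hk1, Pfkl and Pgk1. As the Gapdh probes are not separate measurements, the count by gene is lower. With the brightest probe for each gene, 6 of 10 genes passed this F test. The pattern is not particular to these enzymes. Of the 14 other reference genes described below, 6 passed the F test, and 13 had replicate 3 above the mean of replicates 1 and 2.

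The size of the replicate pattern depended on the scaling. The median deviation of the 24 probes from their mean over the 6 arrays was 0.38 and 0.33 on the replicate 3 arrays of LSC GFP+ and LSC GFP- after 75th percentile scaling, and 0.17 and 0.19 after quantile normalization. The number of probes past the F test fell to 5 under quantile normalization, where 25.5% of all probes passed, and rose to 17 under scaling by the array median, where 30.1% did. Before scaling, the median log2 signal of all spots was 6.15 and 6.24 on the replicate 3 arrays and between 6.31 and 6.44 on the other 4. Of the 2 erythroid markers tested, both passed the F test of the number, and they did not run alike. The log2 signal of Hba-a1 was -1.06, 0.27 and 2.06 in LSC GFP+ and 0.06, -0.04 and 1.52 in LSC GFP- replicates, highest in replicate 3 of each. Alas2 was highest in replicate 2 of each, at -1.50 and -1.42. What sets replicate 3 apart was not tested.

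**Figure D3:**
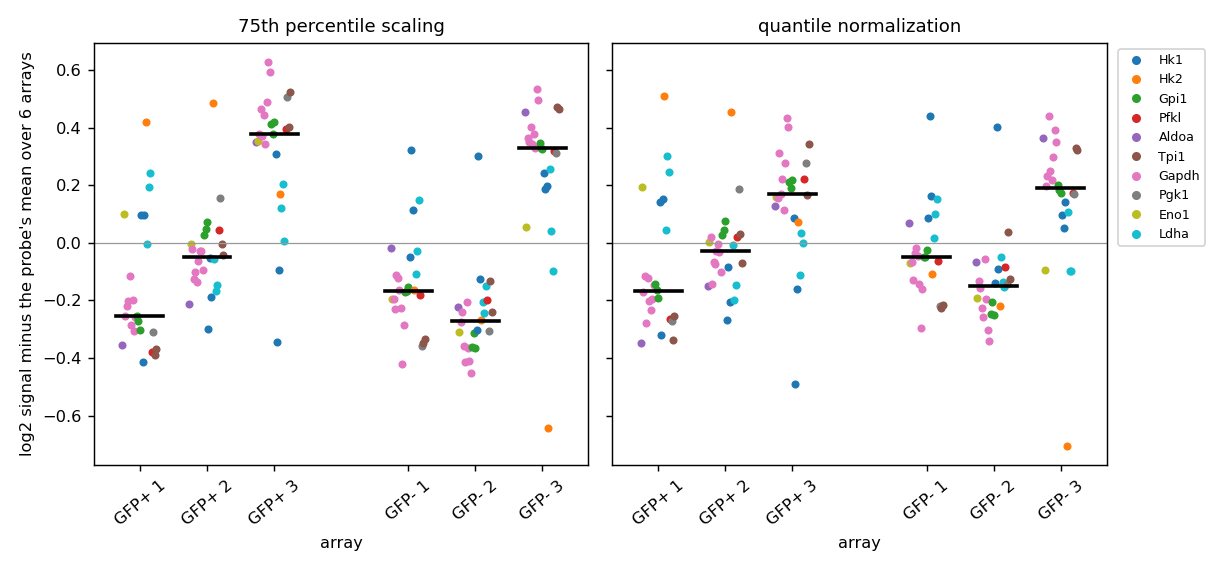
Deviation of the log2 signal from the probe's mean over 6 arrays (y axis) for the 24 probes on each array (x axis), coloured by gene, after 75th percentile scaling (left) and quantile normalization (right). Black bars are medians. Both replicate 3 arrays lie above the others, by less after quantile normalization. Hk2 (orange) is above its mean on the 3 LSC GFP+ arrays and below it on the 3 LSC GFP- arrays. On replicate 3 of LSC GFP+ it lies below the median of the 24 probes in both panels.

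Set beside 14 other reference genes, Gapdh was neither the steadiest nor the most variable. Its SD over the 6 arrays was 0.31, and 9 of the 14 had a smaller one. Polr2a, the largest subunit of RNA polymerase II, varied least (SD 0.077), and B2m, the light chain of MHC class I, varied most (SD 0.77). The size of the Gapdh difference between populations, 0.045, was larger than that of 3 of the 14, whose median size was 0.11. Of the 14, 1 passed the unadjusted threshold, beside 9.33% of all genes. Tfrc, the transferrin receptor, read 3.21, 3.27 and 3.18 in LSC GFP+ and 2.70, 2.72 and 2.85 in LSC GFP- replicates, a difference of 0.46 (SE 0.18, adjusted p = 0.542). With the replicate block 2 of the 14 passed, beside 16.6% of all genes, as B2m joined Tfrc with a difference of -0.79. Actb, cytoplasmic actin, differed by 0.039 (adjusted p = 0.996), and like Gapdh it was highest in replicate 3, by 0.74.

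**Figure D4:**
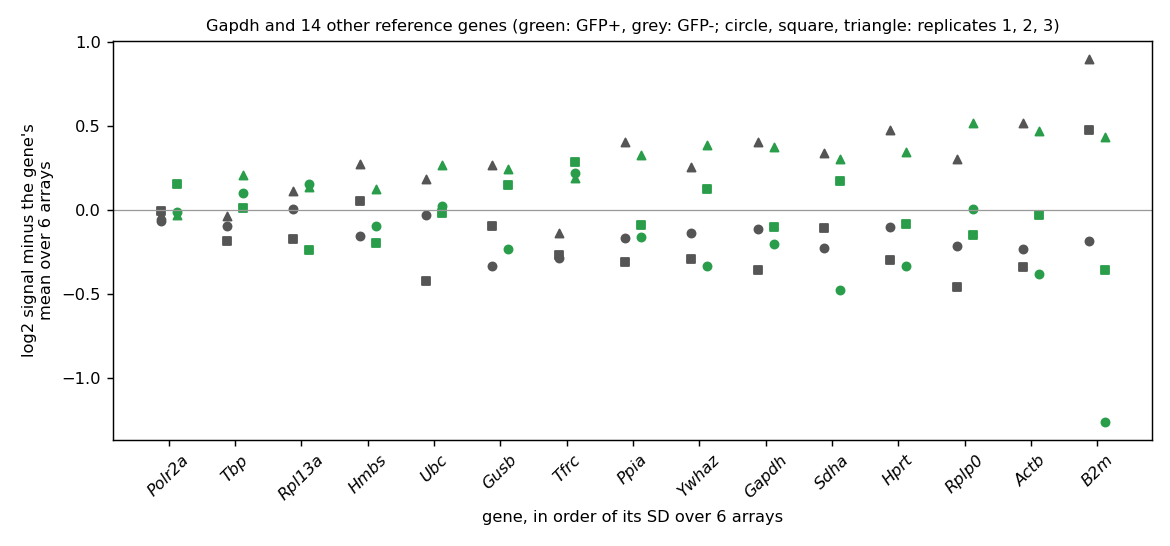
Deviation of the log2 signal from the gene's mean over 6 arrays (y axis) for Gapdh and 14 other reference genes (x axis, in order of their SD), in LSC GFP+ (green) and LSC GFP- (grey) samples. Triangles, the replicate 3 samples, are the highest points of their population at Gapdh, Ppia, Sdha, Hprt, Rplp0 and Actb, and the colours separate at Tfrc and, narrowly, at Tbp.

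The genes whose signal ran most like Gapdh over the 6 arrays were Paip2 (Pearson r = 0.998), Ndufv1 (0.998), Nkapd1 (0.998), Selenoh (0.996) and Rexo2 (0.996), ranked among 15843 genes. The arrays share the replicate pattern, replicate 3 exceeded the other two by 0.46 to 0.86 in these 5 genes, and 8.27% of all genes ranked had an r of at least 0.9. The 5 genes differed between the populations by 0.036 to 0.10, and none passed.

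Wnt10b, a Wnt ligand, Ror1, a Wnt receptor, and Lef1, a transcription factor of the pathway, were measured by RT-qPCR in the study relative to Gapdh, and the same ratio was taken here within each array. These 3 genes were picked by the study from differences on the same arrays, so their direction is a description. Wnt10b minus Gapdh was -6.85, -6.62 and -7.48 in LSC GFP+ and -7.98, -7.73 and -9.29 in LSC GFP- replicates, which do not overlap. The difference was 1.35, or 2.55-fold, while Wnt10b alone gave 2.63-fold. Ror1 relative to Gapdh differed by 1.44 (2.72-fold, against 2.81-fold alone) and Lef1 by 1.54 (2.90-fold, against 2.99-fold alone). All 3 were higher in LSC GFP+ cells in 3 of 3 pairs, each with an exact two-sided permutation p of 0.1, the smallest that 3 against 3 samples can give, and 0.167 after adjustment over 5 ratios. With normexp background correction the log2 differences were smaller, 0.97 for Wnt10b, 0.99 for Ror1 and 0.87 for Lef1, and Wnt10b fell to 0.87 without replicate 3 of LSC GFP-. The choice of reference mattered more than the correction by Gapdh. Over Gapdh and the 14 other reference genes, the fold for Wnt10b ran from 1.91 with Tfrc to 4.54 with B2m, that for Ror1 from 2.04 to 4.85 and that for Lef1 from 2.17 to 5.16, with the same genes at the ends.

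**Figure D5:**
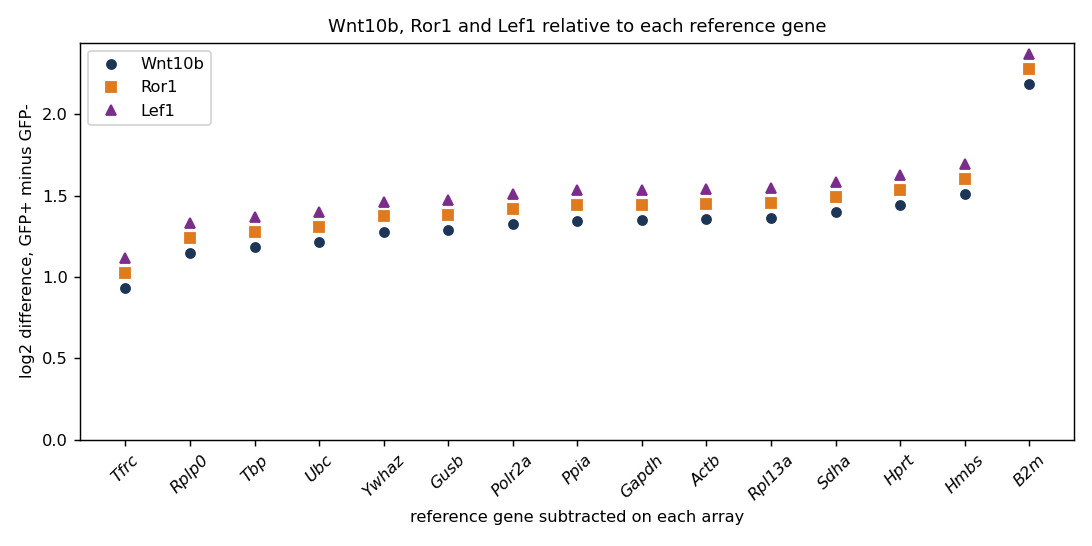
Log2 difference, LSC GFP+ minus LSC GFP- (y axis, from 0), of Wnt10b, Ror1 and Lef1 after each reference gene (x axis) was subtracted on each array. All points are above 0, Tfrc gives the lowest and B2m the highest values, and Gapdh lies among the middle group.

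The other genes of the pathway were taken from lists, with the brightest probe for each gene. Of 19 other glycolytic enzymes, 17 were tested and 1 passed the unadjusted threshold, beside 9.33% of all genes, with a median difference of -0.15. Bpgm, which makes 2,3-bisphosphoglycerate and is abundant in red cells, read 3.94, 4.62 and 5.30 in LSC GFP+ and 5.08, 5.51 and 5.97 in LSC GFP- replicates. It was lower by 0.90 on the log2 scale (difference -0.90, SE 0.38, adjusted p = 0.610), with overlapping populations. It did not pass under median scaling or without the filter on dim probes, nor when replicate 1 or 2 of LSC GFP+ or replicate 3 of LSC GFP- was left out. With the replicate block, 5 of the 17 passed, beside 16.6% of all genes. Among them Bpgm, Eno2, the neuronal enolase (-0.87), and Ldhb, the heart type subunit of lactate dehydrogenase (-0.57), were lower in LSC GFP+ cells, and Aldoc, the brain aldolase, was higher (0.37). Markers of glia and neurons also moved in that fit, in which 2 of the 5 tested of 8, Tubb3 (-1.30) and Sox10 (-0.66), were lower in LSC GFP+ cells, while none passed without the block. The summed linear signal of the 8 was 82.7 to 134.8 in LSC GFP+ and 86.9 to 156.0 in LSC GFP- samples, and Eno2 and Tubb3 were both highest in replicate 1 of LSC GFP-. Their part in the Eno2 value was not tested. Pgam1, phosphoglycerate mutase, and Pkm, pyruvate kinase, which complete the common pathway, differed by -0.032 and 0.14 (adjusted p = 0.996 for both), and both were highest in replicate 3, by 0.59 and 0.49.

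Beside the enzymes, genes of glucose and lactate transport and of regulation were tested. Of 8 glucose and lactate transporter genes, 6 were tested and 1 passed, beside 9.33% of all genes. It was Slc2a4, the insulin-responsive glucose transporter, which was higher in LSC GFP+ cells by 0.60 (SE 0.21, adjusted p = 0.460). With the replicate block 3 passed, beside 16.6% of all genes, namely Slc2a4, Slc2a3 (-0.89) and Slc16a3 (-0.53). Slc2a1, the basal glucose transporter, differed by 0.29 (adjusted p = 0.874). Of 12 regulators of glycolysis, 11 were tested, of which 2 passed as higher in LSC GFP+ cells and 1 as lower, beside the same 9.33% in both directions together. Pfkfb3, which makes the activator of phosphofructokinase, read 0.17, -0.07 and -0.08 in LSC GFP+ and -0.79, -0.74 and -0.70 in LSC GFP- replicates, with no overlap. Its difference of 0.75 (SE 0.18) had an adjusted p of 0.233. Pdk1, a pyruvate dehydrogenase kinase, was higher by 0.61 (SE 0.21, adjusted p = 0.445), also without overlap. Pfkfb4, of the same family as Pfkfb3, was lower, with a difference of -1.05 (SE 0.38, adjusted p = 0.495) and overlapping populations.

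Of 16 other genes known to respond to low oxygen, 13 were tested and 1 passed, a share near the 9.33% of all genes, with a median difference of 0.15. Adm, adrenomedullin, read 1.26, 1.61 and 1.53 in LSC GFP+ and 0.23, 0.25 and 0.56 in LSC GFP- replicates, a difference of 1.12 (SE 0.20, adjusted p = 0.129) with no overlap. Vegfa, Ddit4 and Car9, other genes of that list, had differences of -0.23, 0.37 and -0.23, and did not pass. With the replicate block 2 of the 13 passed, Adm and Ero1a (0.40), a share near the 16.6% of all genes in that fit. Hif1a, which encodes the oxygen-regulated factor, differed by 0.30 (adjusted p = 0.936).

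The balance of isoforms was compared within each array. Hk2 relative to the brightest Hk1 probe was -2.65, -2.19 and -3.12 in LSC GFP+ and -3.09, -2.95 and -3.87 in LSC GFP- replicates, quantities that differ between probes for reasons of design and serve only to compare the populations. The ratio was higher in LSC GFP+ cells by 0.65, or 1.56-fold, in 3 of 3 pairs, with overlap between the populations and an exact two-sided permutation p of 0.3. It was 0.36 without replicate 3 of LSC GFP- and 0.42 without replicate 2 of LSC GFP+. Ldha relative to Ldhb was 2.20, 1.81 and 1.102 in LSC GFP+ and 1.36, 1.103 and 0.82 in LSC GFP- replicates. It was higher by 0.61, or 1.53-fold, in 3 of 3 pairs, with an exact permutation p of 0.3, and by 0.36 without replicate 1 of LSC GFP+. After adjustment over the 5 ratios both values stayed at 0.3.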

How the data were processed

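RNA of 3 LSC GFP+ and 3 LSC GFP- samples was amplified, labelled with Cy3 and hybridized to SurePrint G3 Mouse arrays, all scanned from 1 slide, so slide effects could not be examined. The deposited values are intensities on a linear scale from Agilent Feature Extraction (11.0.1.1 in the file headers, 10.7.3.1 in the submitters' processing notes), with background subtracted and no normalization between arrays. The deposited table of the whole series holds the same intensity values, rounded.

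Intensities were log2 transformed and scaled to the array's 75th percentile, and a probe's spots were averaged without outlier spots (123 to 154 per array). A probe was kept when the software called it well above background in every replicate of 1 or both populations. The 37005 probes kept were fitted together in limma (3.58.1, run in R 4.3.3; lmFit, then eBayes), two-sided, with Benjamini-Hochberg adjustment over all of them. The call rule was an unadjusted p under 0.05, the threshold in the study's methods. The probe with the brightest mean stood for its gene. Ratios within arrays were compared with exact permutation tests. The number of arrays limits the precision. The fits were tested on simulated data.

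The enzymes, gene lists and tests were chosen with earlier results of these data known. Named are all probes of the 10 enzymes, genes of the lists, and the 5 genes most correlated with Gapdh. Symbols came through RefSeq accessions (GRCm38.p6, names only), which matched 26582 probes; other probes kept the symbol of the array design. Samples of the same replicate number in the labels were checked for pairing. Their deviations from the population means correlated at 0.428, 0.273 and 0.662, each over 0.1. Samples of unlike number correlated at -0.542 to 0.221, the highest being replicate 1 of LSC GFP+ with replicate 2 of LSC GFP-. As 0.221 is also over 0.1, this check does not settle that the numbers pair the samples. The values, intervals and calls given come from the unpaired fit unless the replicate block is named. Alternatives were normexp background correction (offset 50), quantile or median scaling, the rounded table, outlier spots kept, 2 other filters, the methods' t-test, an intensity trend, a block on the replicate number, gene means over probes and each array left out. The F test of the replicate number and the fit without both arrays of replicate 3 were added after seeing the data. The RT-qPCR values were not analysed here, and some genes of the lists are counted but not reported by name.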

Additional observations from a re-analysis of the deposited data

How the results depend on the processing

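Hk2 kept its direction and passed the unadjusted threshold of 0.05 under all 18 alternatives run (differences 0.57 to 0.81), and Eno1 and Pgk1 kept their direction in all 18 without passing. The number of the 24 probes that passed, 2, was 1 under median scaling and without both arrays of replicate 3, and 1 to 2 with each array left out, the probe lost being that of Hk1 at base 3844. The number of other glycolytic enzymes that passed, 1, was 2 under normexp, the methods' t-test and without both arrays of replicate 3, 0 under median scaling and without a filter, 5 with the replicate block, and 0 to 2 with each array left out. The replicate block, which takes samples of equal number as pairs, changed no other call of the 10 enzymes. The count of probes past the test of the replicate number, 15, was 5 under quantile normalization and 5 without a filter. Quantile normalization turned the sign of Gapdh (-0.118), Hk1 (-0.026), Pfkl (-0.017), Tpi1 (-0.093) and Ldha (-0.051), and the mean over its probes that of Hk1 (-0.198). With each array left out the differences ran from -0.130 to 0.257 for Gapdh, -0.067 to 0.238 for Hk1, -0.050 to 0.324 for Gpi1, -0.146 to 0.240 for Pfkl, -0.196 to 0.241 for Tpi1, -0.053 to 0.179 for Ldha and -0.355 to 0.047 for Aldoa, 0.041 to 0.450 for Pgk1 and 0.199 to 0.403 for Eno1. The causes were not tested. The 5 within-array ratios kept their direction in every setting, and with each array left out ran from 0.871 to 1.65 for Wnt10b, 1.19 to 1.78 for Ror1 and 1.095 to 1.94 for Lef1 relative to Gapdh, 0.364 to 0.878 for Hk2 relative to Hk1 and 0.362 to 0.909 for Ldha relative to Ldhb. With 3 arrays per population, intervals of these enzymes were about 0.5 to 0.8 wide on each side on the log2 scale, and narrower with the replicate block.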

Other observations

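Outside the rule by gene name, 2 probes named for Eno1b in current annotation list the Eno1 transcript in the array design. Their log2 signals were 4.13, 4.13 and 4.37 in LSC GFP+ and 3.83, 3.74 and 4.13 in LSC GFP- replicates at the first, and 2.26, 2.25 and 2.76 against 1.72, 1.496 and 2.31 at the second. The differences were 0.31 (SE 0.20, adjusted p = 0.870) and 0.58 (SE 0.27, adjusted p = 0.696) in limma, in the same direction as the 0.30 of the Eno1 probe. With the replicate block the second passed the unadjusted threshold of 0.05 and the first did not. These probes were chosen after their values were seen.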
